A study of Mus musculus with 6 samples.

Results

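The expression of 10 genes of lipolysis and of the lipid droplet was followed in mouse subcutaneous white fat. The 10 genes were chosen by name, and each name matched 1 row of the 36144 in the table. Of these, 4 drive lipolysis (Pnpla2, Lipe, Mgll and Abhd5) and 6 restrain it, coat the droplet or enlarge it (G0s2, Plin1, Plin4, Cidec, Pde3b and Prkar2b). Both sets are described apart. The tissue came as 6 poly-A RNA libraries, 3 titled WT and 3 titled Tumor, each called a biological replicate in its title, with nothing further on whether they came from separate animals. The labels describe these groups in conflicting ways. The genotype label reads MSRA WT for the libraries titled WT and MSRA full-body KO for those titled Tumor, and all 6 carry the treatment label of an orthotopic transplant. The design text describes grafts of pancreatic cancer cells in hosts of both genotypes and fat taken 4 to 5 weeks after surgery. The series title instead sets tumour-bearing mice against controls without a tumour. Strain, age and sex of the mice were not given in the sources used here. Groups are therefore named by their titles, as the WT label and the Tumor label, values are always listed as replicates 1, 2 and 3, and every direction is drawn from those titles.

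Lipolysis releases stored fat from adipocytes in steps. Pnpla2 (adipose triglyceride lipase, ATGL) removes the first fatty acid from a triglyceride, Lipe (hormone-sensitive lipase) acts mainly on the diglyceride, and Mgll (monoglyceride lipase) frees glycerol. Abhd5 (CGI-58) activates Pnpla2, G0s2 inhibits it, and Plin1 holds Abhd5 at the droplet surface until protein kinase A phosphorylates the coat. Prkar2b is the regulatory subunit of that kinase that predominates in fat, and Pde3b degrades the cAMP that activates it, a route by which insulin slows lipolysis. Plin4 is a further coat protein, and Cidec (FSP27) lets droplets fuse into the large single droplet of the white adipocyte. Pnpla2, Lipe, Plin1, Cidec and G0s2 are known as abundant transcripts of white fat.

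Levels are given in TPM, transcripts per 1000000 after division by length, so they may be compared between genes. The number of reads is not known, and 13073 to 14249 genes stood at 1 TPM or more per library. Msra (methionine sulfoxide reductase A) stood at 51.1, 59.1 and 56.3 TPM under the WT label and at 52.9, 39.99 and 26.9 TPM under the Tumor label. Transcript was thus present in the 3 libraries whose genotype label is KO. The libraries were uneven in cell content. The 12 adipocyte markers, none of which was at 0 in any library, summed to 37244 to 64842 TPM under the WT label and to 14926 to 55297 TPM under the Tumor label, with the lowest sum in Tumor replicate 3 and the highest in WT replicate 3. The 6 B cell markers summed to 4.16 to 844 TPM and 9.33 to 2105 TPM, with WT replicate 3 and Tumor replicate 1 at the low end of each group, and the 5 T cell and 5 lymph node markers had the same low libraries (4.09 to 482 and 8.46 to 705 TPM for T cells, 46.3 to 2300 and 58.0 to 3428 TPM for lymph node). The 10 skeletal muscle markers summed to 12.1 to 3771 TPM and 744 to 2982 TPM. In tissue RNA, fewer adipocytes and less RNA per adipocyte cannot be told apart.

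Start regions are shown for the 3 members with a window that held enough sequence outside the gene itself and no exon of another gene. Pnpla2 is the first lipase, Abhd5 is its coactivator and kept the narrowest range of levels, and Cidec followed Lipe and Prkar2b closely. The sequences are from RefSeq on GRCm38.p6, the build named in the submitters' processing notes, and run 5′ to 3′ toward the gene, ending before the first transcribed base (the Abhd5 window was trimmed to 242 bases to leave out transcribed bases, the others hold 250). Capitals mark GGGCGG, the GC box, or AGGTCA, the core element of nuclear receptors, on either strand.
Pnpla2, chr7:141454938-141455187, forward strand: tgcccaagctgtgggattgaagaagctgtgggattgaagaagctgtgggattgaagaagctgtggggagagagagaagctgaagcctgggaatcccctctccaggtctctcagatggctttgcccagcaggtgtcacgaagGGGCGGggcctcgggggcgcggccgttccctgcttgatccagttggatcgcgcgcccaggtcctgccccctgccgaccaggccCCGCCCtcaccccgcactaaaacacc
Abhd5, chr9:122351366-122351607, forward strand: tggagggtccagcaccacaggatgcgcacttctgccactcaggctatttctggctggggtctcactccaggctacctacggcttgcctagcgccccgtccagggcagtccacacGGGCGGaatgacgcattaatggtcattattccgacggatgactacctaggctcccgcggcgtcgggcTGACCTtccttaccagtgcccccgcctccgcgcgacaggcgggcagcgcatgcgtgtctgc
Cidec, chr6:113435761-113436010, reverse strand: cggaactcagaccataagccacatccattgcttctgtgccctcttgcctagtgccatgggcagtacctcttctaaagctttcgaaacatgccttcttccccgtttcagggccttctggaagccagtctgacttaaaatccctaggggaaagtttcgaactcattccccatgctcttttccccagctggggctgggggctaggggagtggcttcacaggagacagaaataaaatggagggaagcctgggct
Start windows of 250 bases were matched for 9 of the 10 members, 13 windows in all. The GC box (GGGCGG, both strands) lay in 6 of these 13 windows, 1 each of Pnpla2, Abhd5, G0s2, Lipe, Mgll and Prkar2b, against 32.7% of the 32851 windows of the same length. The nuclear receptor element (AGGTCA, both strands) lay in 1 of the 13, that of Abhd5, against 14.0%. TTGCNNAA, the core of the C/EBP motif, lay in 2 of the 13 (Plin1 and Cidec), against 9.56%, and GTAAACA, a FOXO motif, in 2 of the 13 (Lipe and Mgll), against 3.17%, both on either strand. Some windows belong to starts inside a gene or reach into it. Every match of Lipe and Cidec, the GC box of Mgll and 1 of 2 C/EBP matches of Plin1 lay within the gene itself in both RefSeq and GENCODE M21, the GC boxes of Prkar2b did so in RefSeq alone, and that of G0s2 in GENCODE M21 alone. The matches of Pnpla2 and Abhd5, the FOXO match of Mgll and the other Plin1 match lay outside the gene in both. These are matches of letters and do not show binding. The set of 32851 windows left out 1 chromosome, which holds none of the 10 members.

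The 4 drivers kept the order Pnpla2, Lipe, Mgll, Abhd5 from highest to lowest level in every library. Pnpla2 (chromosome 7, 141455198 to 141460743, GENCODE M21 on GRCm38) stood at 922, 1359 and 1689 TPM under the WT label and at 1479, 1215 and 440 TPM under the Tumor label. Tumor replicate 3 was the lowest of all 6, and the other 2 libraries labelled Tumor lay inside the range of WT. The means were 1323 ± 384 and 1045 ± 540 TPM (SD, n = 3), with a log2(TPM + 1) difference, Tumor minus WT, of -0.47 (SE 0.52, limma adjusted p = 0.802). Without Tumor replicate 3 this difference was 0.06. Lipe (chromosome 7, 25379527 to 25398710), the second lipase, stood at 621, 767 and 1315 TPM against 987, 840 and 278 TPM. Its difference was -0.48 (SE 0.56, limma adjusted p = 0.811), and 0.09 without Tumor replicate 3. Mgll (chromosome 6, 88724412 to 88828360) stood at 246, 245 and 428 TPM against 330, 259 and 81.0 TPM, a difference of -0.63 (SE 0.57, limma adjusted p = 0.769). Without Tumor replicate 3 it was -0.02. In each of the 3 lipases WT replicate 3 was highest and Tumor replicate 3 lowest, and the groups overlapped.

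Abhd5 (chromosome 9, 122351608 to 122381524), the coactivator, stood apart from the lipases by its narrow range in one group. It was at 110, 104 and 117 TPM under the WT label, a mean of 110 ± 6.82 TPM (SD, n = 3), although the adipocyte markers varied there. In the libraries labelled Tumor it was at 131, 81.5 and 47.9 TPM, so that one lay above every WT value and the other two below. The difference was -0.45 (SE 0.36, limma adjusted p = 0.749). Over the 6 libraries Abhd5 spanned 2.72-fold, the least of the 10 genes, against 3.84-fold for Pnpla2, 4.72-fold for Lipe and 5.28-fold for Mgll.

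G0s2 (chromosome 1, 193272161 to 193273217), the inhibitor of Pnpla2, varied most, 11.4-fold over the 6 libraries. It stood at 625, 301 and 735 TPM under the WT label and at 431, 438 and 64.3 TPM under the Tumor label. WT replicate 2 lay below 2 of the libraries labelled Tumor, so the groups overlapped. Group means came to 554 ± 226 and 311 ± 214 TPM (SD, n = 3). The difference of -1.16 (SE 0.82, limma adjusted p = 0.738) was the largest in size among the 10 genes. It rested on Tumor replicate 3, without which it was -0.25. The gene overlaps Lamb3 on the other strand, and although the titles mention the forward strand, how strand entered the counting is not stated, so reads of the pair may not be told apart. The same holds for Lipe, Abhd5 and Plin4, each of which overlaps an annotated gene on the other strand. Mgll overlaps annotated genes on both strands, and strand cannot separate it from those on its own.

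The droplet proteins were led by Cidec. Cidec (chromosome 6, 113424634 to 113435760), the fusion protein, stood at 987, 1280 and 2256 TPM under the WT label and at 1524, 1251 and 393 TPM under the Tumor label, a difference of -0.64 (SE 0.60, limma adjusted p = 0.774), and of -0.04 without Tumor replicate 3. Plin1 (chromosome 7, 79720218 to 79732903), the main coat protein of white fat, stood at 733, 617 and 1694 TPM against 1101, 1041 and 253 TPM. Its 2 higher Tumor libraries lay above 2 of the 3 libraries labelled WT, and its difference of -0.47 (SE 0.70, limma adjusted p = 0.841) was 0.23 without Tumor replicate 3. Plin4 (chromosome 17, 56100591 to 56109803) stood at 258, 289 and 965 TPM against 617, 503 and 115 TPM. Its range was 8.40-fold, and its difference of -0.34 (SE 0.81, limma adjusted p = 0.897) was 0.42 without Tumor replicate 3 and 0.27 without WT replicate 3. For both coat genes the sign of the difference was thus set by single libraries.

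The cAMP genes did not share a profile. Prkar2b (chromosome 12, 31958476 to 32061296) stood at 162, 181 and 330 TPM under the WT label and at 208, 164 and 55.6 TPM under the Tumor label, a difference of -0.78 (SE 0.55, limma adjusted p = 0.738), and of -0.21 without Tumor replicate 3. Pde3b (chromosome 7, 114415281 to 114539251), the phosphodiesterase, was the least abundant member. It stood at 37.1, 34.2 and 75.9 TPM against 67.4, 54.9 and 25.2 TPM, with means of 49.0 ± 23.3 and 49.2 ± 21.7 TPM (SD, n = 3). The difference was -0.01 (SE 0.47, limma adjusted p = 0.993), and leaving out 1 library at a time moved it from -0.29 to 0.40.

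**Figure D1:**
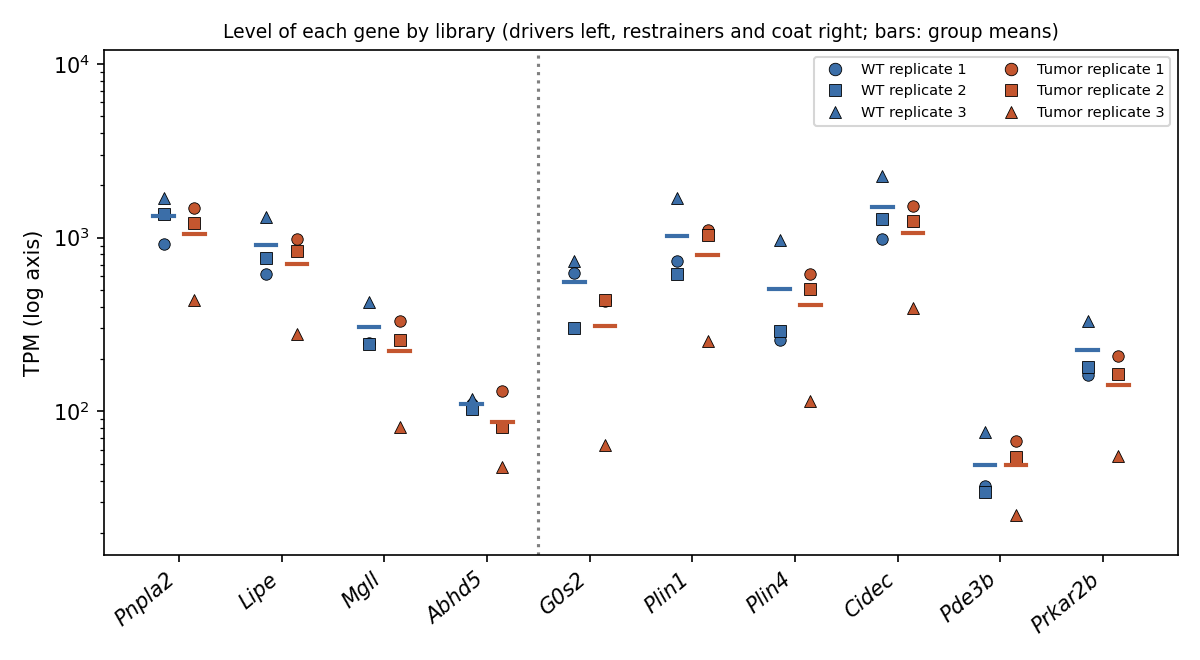
TPM of each of the 10 genes on a log axis, with blue symbols for the libraries labelled WT, orange for those labelled Tumor, shapes for the replicate numbers and bars for the group means (n = 3). Tumor replicate 3 is the lowest library for all 10 genes and WT replicate 3 the highest for 9, and the groups overlap for every gene.

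No member passed the test between the groups. Of the 10 genes 0 had a limma adjusted p below 0.05 and 0 an unadjusted p below 0.05, where over all 14144 genes tested 0.0% and 5.45% (771 genes) did. With 3 libraries per group that vary this much, a p above the threshold does not show equal levels. All 10 differences were negative as deposited, although 3 turned positive after centring on adipocyte markers (Abhd5, Plin4 and Pde3b). Over all genes 23.2% were negative, and the members share the same uneven libraries, so their signs are not separate observations. The median difference was -0.48 for the 4 drivers and -0.55 for the 6 restrainers and coat genes, against 0.23 for all genes tested. Without Tumor replicate 3 these medians were 0.02 and 0.09. In 0 of the 10 genes did every Tumor library lie below every WT library, against 3.23% of all genes.

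The members made up 4703, 5177 and 9605 TPM together under the WT label and 6875, 5847 and 1754 TPM under the Tumor label. The share of this sum held by the 4 drivers, a balance within a library, was 40.4%, 47.8% and 36.9% under the WT label and 42.6%, 41.0% and 48.3% under the Tumor label, and the groups overlapped. WT replicate 2 and Tumor replicate 3 had the highest driver shares and the lowest shares of G0s2, 5.82% and 3.66%, while G0s2 held 6.27% to 13.3% in the other libraries.

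Levels were next set against the adipocyte markers. Each library was centred on the mean log2 level of the 12 markers, which include Adipoq, Fabp4 and Pparg and none of the 10 genes. After centring the differences of Pnpla2, Lipe, Plin1 and Abhd5 were near 0, at -0.02, -0.02, -0.01 and 0.00 on the log2 scale, with leave-one-out ranges of -0.14 to 0.22, -0.14 to 0.10, -0.12 to 0.12 and -0.27 to 0.20. For Abhd5 a difference near 0 did not mean a steady level. Its ratio to the geometric mean of the markers spanned 2.13-fold, against 1.66-fold for Pnpla2, 1.39-fold for Lipe and 1.34-fold for Plin1. The remaining members had centred differences of -0.71 for G0s2, -0.32 for Prkar2b, -0.18 for Cidec, -0.17 for Mgll, 0.12 for Plin4 and 0.44 for Pde3b. In the centred fit 0 of the 10 genes passed (smallest limma adjusted p = 0.717). Its SE ran from 0.55 to 0.64, although centred values of Mgll were -1.16, -0.99 and -1.22 against -1.34, -1.29 and -1.26. Limma pulls each SE toward those of the other genes, and only 50 genes had an unadjusted p below 0.05 there. That fit therefore cannot judge differences against the members' own spread. The centring moved the median of all genes to 0.69, so a value near 0 is a statement relative to the adipocyte markers alone.

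**Figure D2:**
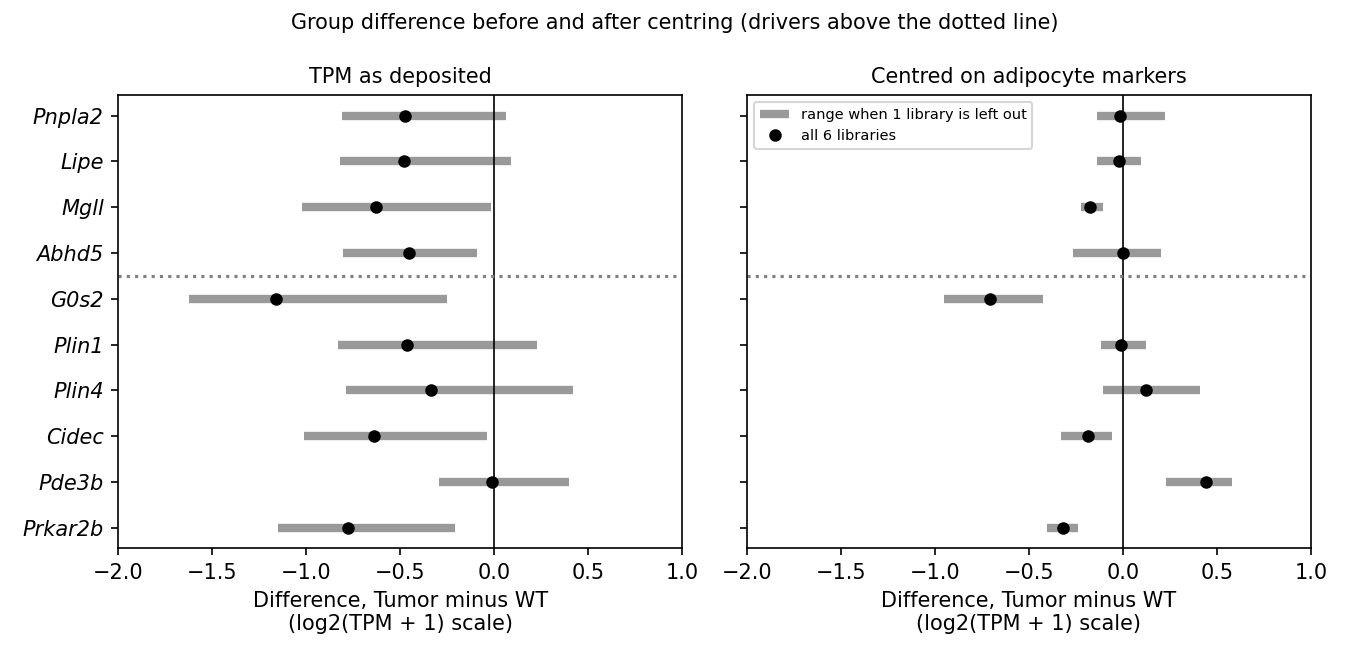
Difference between the groups for each gene on the log2(TPM + 1) scale, Tumor minus WT, from TPM as deposited (left) and after centring each library on 12 adipocyte markers (right). Points are the values from all 6 libraries and grey bars the range when 1 library is left out. On the left 5 of the 10 bars cross 0, and on the right those of G0s2, Prkar2b, Cidec and Mgll lie below 0 and that of Pde3b above.

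Ratios between genes of the same library are free of the scaling between libraries, but they can still follow the cell content of a library. Of 19 ratios compared, 9 between members and 10 of a member over Adipoq, the adipocyte hormone adiponectin, 0 passed after adjustment, and 3 against 3 libraries cannot give an exact p below 0.1. In 3 ratios the groups did not overlap. Pde3b over Prkar2b was 0.229, 0.189 and 0.230 under the WT label and 0.324, 0.335 and 0.454 under the Tumor label. All 3 libraries labelled Tumor lay above all 3 labelled WT, with a log2 difference of 0.77 (two-sided exact permutation p = 0.1, Benjamini-Hochberg 0.633) that ran from 0.62 to 0.86 when 1 library was left out. Of all pairs among the tested genes above 0 in every library, 10.1% did not overlap in either direction. The ratio was highest in Tumor replicate 3, the library with the lowest sum of adipocyte markers. The part of cell content in this ratio was not tested. Prkar2b over Adipoq was 0.115, 0.106 and 0.0971 against 0.0602, 0.0810 and 0.0771, lower in every Tumor library, with a log2 difference of -0.55 (two-sided exact permutation p = 0.1, Benjamini-Hochberg 0.633). Cidec over Adipoq was 0.699, 0.748 and 0.663 against 0.441, 0.618 and 0.546, with a log2 difference of -0.41 and the same p. Among all genes tested the ratio to Adipoq was lower without overlap in 0.778%, and among the 10 members in these 2. None of the 10 was higher without overlap over Adipoq, as 2.17% of all genes were. When the geometric mean of the 12 markers took the place of Adipoq, Prkar2b (-0.32) and Mgll (-0.17) were lower without overlap, against 0.502% of all genes, and Pde3b (0.45) higher, against 7.71%. The Cidec ratio overlapped in that form, at 1.81, 2.65 and 2.27 against 1.84, 1.99 and 2.06. Mgll over Adipoq overlapped, at 0.174, 0.143 and 0.126 against 0.0954, 0.128 and 0.112. For Mgll and Pde3b, without overlap over the markers but not over Adipoq, the calls thus depended on the reference. The rise of Pde3b over the markers was also smaller than the median of all genes in the centred fit, 0.69.

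The balance between Pnpla2 and its partners did not separate the groups. Pnpla2 over its inhibitor G0s2 was 1.47, 4.52 and 2.30 under the WT label and 3.43, 2.77 and 6.85 under the Tumor label (two-sided exact permutation p = 0.4, Benjamini-Hochberg 0.76). The log2 difference of 0.70 ran from 0.31 without Tumor replicate 3 to 1.13 without WT replicate 2. Abhd5 over Pnpla2, coactivator over enzyme, was 0.119, 0.0762 and 0.0694 against 0.0883, 0.0671 and 0.109. Abhd5 over Plin1, coactivator over the coat that holds it, was 0.150, 0.168 and 0.0691 against 0.119, 0.0783 and 0.189, and its log2 difference was 0.01. This ratio was lowest in WT replicate 3 and highest in Tumor replicate 3, the libraries with the most and the least adipocyte marker RNA. Lipe over Pnpla2 was steady, at 0.673, 0.564 and 0.779 against 0.668, 0.691 and 0.633, and Mgll over Lipe likewise, at 0.396, 0.319 and 0.325 against 0.334, 0.308 and 0.291. The coat ratio Plin4 over Plin1 was 0.352, 0.469 and 0.570 against 0.561, 0.483 and 0.453.

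**Figure D3:**
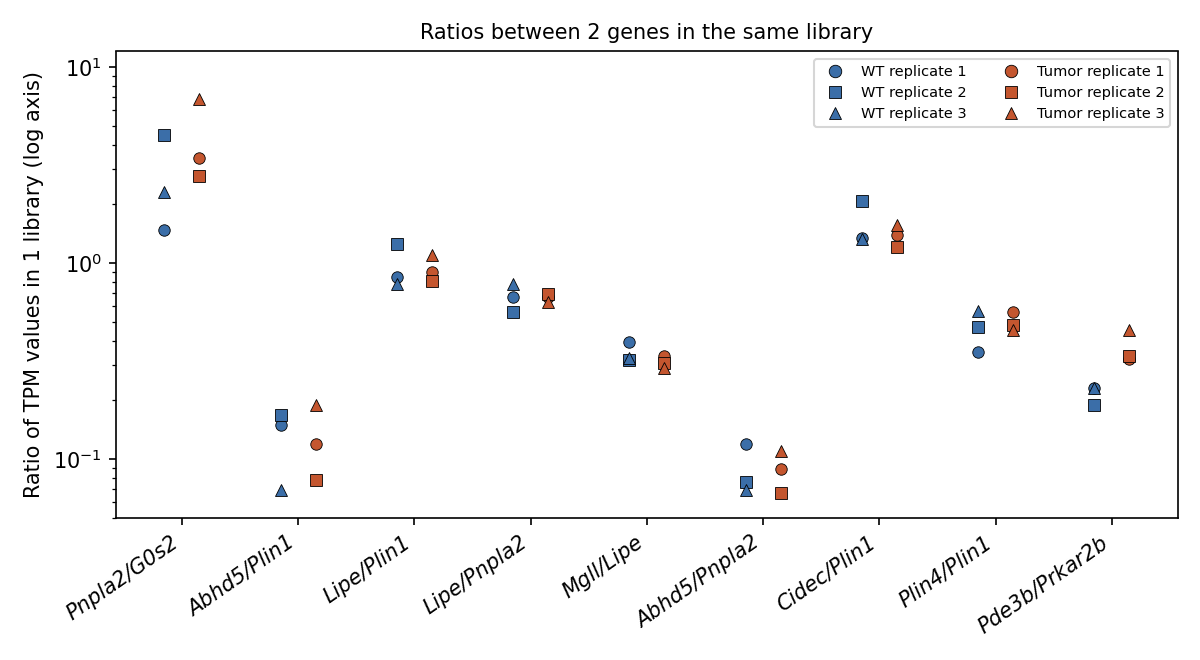
Ratio of TPM values of 2 genes in the same library, on a log axis, for the 9 ratios between members, with the symbols of the plot of levels. The groups overlap in 8 ratios, and for Pde3b over Prkar2b the libraries labelled Tumor (0.324 to 0.454) lie above those labelled WT (0.189 to 0.230).

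Over all 45 pairs of members, described without a test, the groups did not overlap in 9 pairs (20.0%), against 10.1% of all pairs among the 13606 tested genes above 0 in every library. Pde3b was in 6 of the 9, so they are not separate observations, and nothing is read from the difference between these shares. The steadiest pair was Lipe over Cidec, at 0.629, 0.599 and 0.583 under the WT label and 0.648, 0.672 and 0.708 under the Tumor label. It spanned 1.21-fold over the 6 libraries while Lipe alone spanned 4.72-fold, and even so its groups did not overlap. Lipe over Prkar2b was 3.83, 4.24 and 3.98 against 4.75, 5.13 and 5.01. G0s2 over Plin1 was 0.853, 0.488 and 0.434 against 0.392, 0.421 and 0.254, lower in every Tumor library. The pair with the widest range was G0s2 over Pde3b, 6.62-fold, at 16.9, 8.81 and 9.69 against 6.404, 7.98 and 2.55. Lipe over Cidec, Lipe over Prkar2b, G0s2 over Plin1 and G0s2 over Pde3b were chosen after their values were seen.

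Likeness between genes was measured as the root mean square difference of their centred log2(TPM + 1) profiles over the 6 libraries, where 0 means the same profile. Cidec, Lipe, Prkar2b and Mgll formed the closest set, with 0.10 between Cidec and Lipe, 0.10 between Cidec and Prkar2b, and 0.11 between Mgll and Prkar2b. Lipe was the second nearest of 10930 genes to Cidec and Prkar2b the third, behind Adora1, the adenosine receptor that lowers cAMP in fat, at 0.09. The nearest genes to Prkar2b were Tlcd1, Cidec and Arxes1, those to Lipe were Cd59a, Adora1 and Rhbdl1 (0.06 to 0.08), and those to Mgll were L3hypdh, Gstz1 and Ces1f (0.06 to 0.09). Pnpla2 was 0.14 from Lipe, and its 3 nearest genes were Inca1, Eif4ebp1 and Tmem53, at 0.08 to 0.09. Plin1 was nearest to Cavin2 (0.08), a component of caveolae, then to Abcd2 and Inhbb (0.13), and lay 0.23 from Plin4, whose own nearest genes were Glb1l2, Epb41l1 and Cavin2 (0.18 to 0.19). Abhd5 was nearest to Glul (0.07), glutamine synthetase, then to Sfxn1 (0.12) and Rtn4rl2 (0.13), and lay 0.32 from Pnpla2. Pde3b was nearest to Lrp5, Ephb4 and Ptprm, at 0.04 to 0.05, and 0.31 or more from every other member. G0s2 had no close neighbour: A530016L24Rik (0.36), Irs3 (0.37) and Mmd (0.40) came first, and the nearest member was Plin1 at 0.51. All these genes share the libraries and their adipocyte content, and small distances are easier to reach for genes that vary little.

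**Figure D4:**
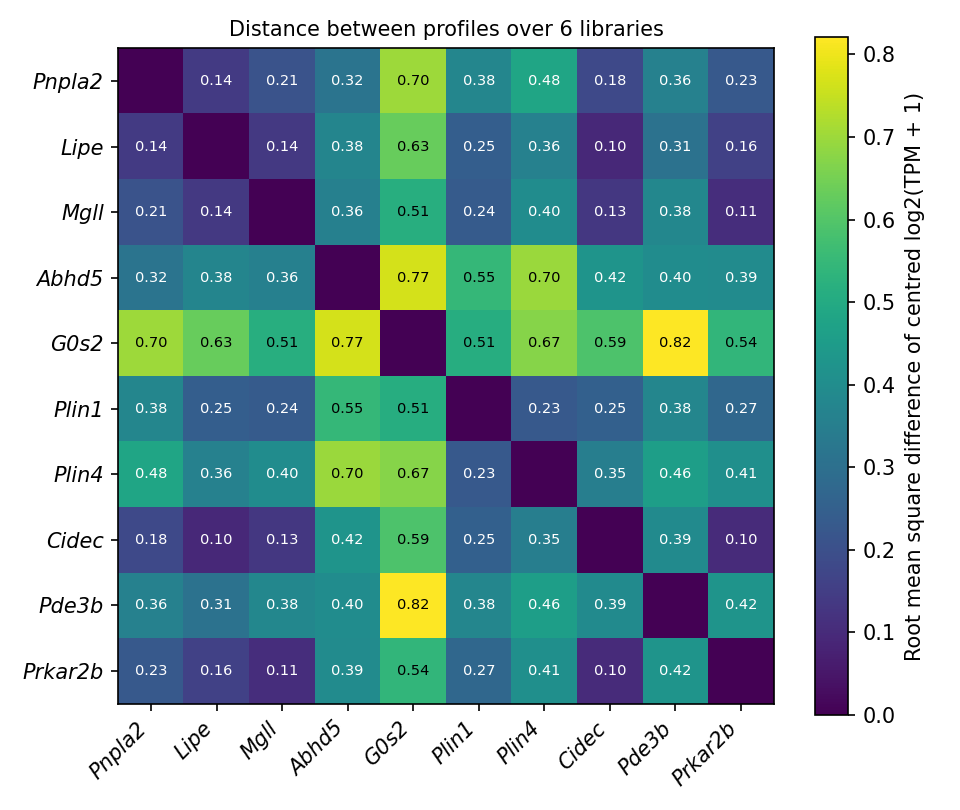
Root mean square difference between the centred log2(TPM + 1) profiles of each pair of the 10 genes over the 6 libraries, with dark cells for similar profiles. Cidec, Lipe, Mgll and Prkar2b lie 0.10 to 0.16 from each other, and G0s2 lies 0.51 to 0.82 from every other gene.

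Other genes of the pathway were taken from lists that held none of the 10. Of 13 further lipases and hydrolases, all tested, 9 had a negative and 4 a positive difference, 0 passed in limma with or without adjustment, and the median was -0.34. Daglb, a diacylglycerol lipase, stood at 9.35, 8.19 and 10.3 TPM under the WT label and 25.7, 11.7 and 12.7 TPM under the Tumor label, without overlap (0.71, SE 0.32, limma adjusted p = 0.737), against 11.8% of all genes higher without overlap. Tumor replicate 1, the highest for Daglb, also had the highest sum of 7 macrophage markers, 2175 TPM against 982 to 1091 TPM in the other 5 libraries, and of 7 progenitor and fibroblast markers, 6964 TPM against 862 to 2975 TPM. The part of these in the result was not tested. Abhd6, a monoglyceride hydrolase, stood at 14.9, 15.5 and 22.0 TPM against 13.2, 14.2 and 8.37 TPM, lower without overlap, against 3.23% of all genes. Over the adipocyte markers Abhd6 overlapped, whereas Daglb was still higher without overlap, against 7.71% of all genes. Ddhd1 and Ddhd2 stood with overlap at differences of 0.61 and -0.36, the latter from -0.58 to 0.10 over the alternatives run. Of 28 genes of cAMP production, breakdown and kinase signalling 27 were tested, 11 negative and 16 positive, with a median of 0.20 and 0 past the limma test with or without adjustment. Prkaca, the catalytic subunit that Prkar2b holds in check, stood at 118, 99.1 and 145 TPM against 113, 92.5 and 51.3 TPM. Prkar1a, the other main regulatory subunit, stood at 128, 97.8 and 114 TPM against 127, 144 and 154 TPM. Adcy7, an adenylyl cyclase of immune cells, differed by 0.97 (SE 0.56) with overlap. Gnai3, an inhibitory G protein subunit, was higher without overlap, at 46.1, 31.6 and 40.3 TPM against 47.9, 53.2 and 52.4 TPM. Over the adipocyte markers Gnai3 overlapped.

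A list of further coat and droplet size genes matched 19 genes in the table. Of these 18 were tested, 7 negative and 11 positive, with a median of 0.10. None passed after adjustment and 3 had an unadjusted p below 0.05 in limma, 2 lower and 1 higher, against 1.7% and 3.75% of all genes. Of these Plin5, the coat protein of oxidative tissues that ties droplets to mitochondria, stood at 15.7, 30.5 and 26.7 TPM under the WT label and at 7.37, 9.59 and 4.41 TPM under the Tumor label. The groups did not overlap, where 3.23% of all genes were lower without overlap. The difference was -1.64 (SE 0.36, limma adjusted p = 0.737), from -1.92 to -1.18 over all alternatives run. Cidea, the relative of Cidec found in brown and beige adipocytes, stood at 132, 382 and 118 TPM against 33.6, 75.02 and 45.8 TPM, without overlap, a difference of -1.87 (SE 0.53, limma adjusted p = 0.737). Over the adipocyte markers Plin5 was still lower without overlap, against 0.502% of all genes, whereas Cidea overlapped. The 5 brown and beige adipocyte markers summed to 685 to 1785 TPM under the WT label and 177 to 302 TPM under the Tumor label and moved with both genes, and their part in these values was not tested. Rnf213, the third, stood at 48.7, 61.8 and 33.1 TPM against 56.6, 93.3 and 117 TPM. Hilpda, an inhibitor of Pnpla2 induced by low oxygen, stood at 7.57, 14.1 and 11.8 TPM against 24.5, 12.6 and 22.7 TPM, with overlap (0.77, SE 0.34, limma adjusted p = 0.737).

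**Figure D5:**
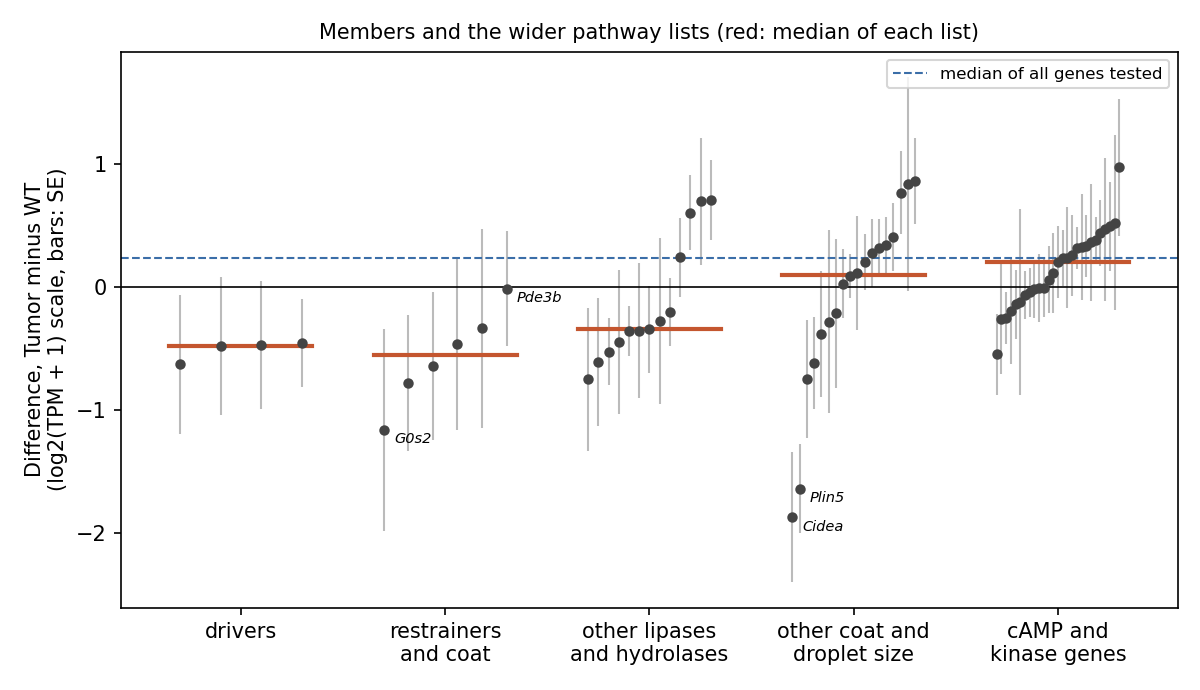
Difference between the groups on the log2(TPM + 1) scale, Tumor minus WT, for the tested genes of each list, with bars for the SE, red lines for list medians and a dashed line for the median of all genes tested (0.23). Plin5 and Cidea have the lowest values, at -1.64 and -1.87, and 0 genes shown passed the test.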

How the data were processed

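Poly-A RNA libraries of mouse subcutaneous white fat were made from RNA with an integrity number above 7 with TruSeq chemistry, per the labels' protocols. The authors deposited 1 table whose name speaks of raw counts, but its values are TPM: every column sums to 1000000, values are not whole, and low values of genes with 1 transcript fall on steps that scale with transcript length. The submitters' processing notes name GRCm38.p6 and, without a role, DESeq2. Aligner, quantifier, annotation release: not given in the sources used here. Depth is unknown, so no counting interval was possible.

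Groups were taken from the sample titles and columns from the description label. The main test was limma 3.58.1 (R 4.3.3) on log2(TPM + 1), with trend and robust moderation, on the 14144 genes reaching 1 TPM in 3 or more libraries. All 10 members passed this filter. Benjamini-Hochberg adjustment ran over all genes tested, with a threshold of 0.05. Ratios used exact permutation tests in scipy 1.17.1. P-values measure the spread between these libraries, which limma pulls for each gene toward that of the other genes tested. Non-overlap was counted on 14140 genes, leaving out 4 rows with repeated names. On simulated data for this comparison (14144 genes, spread as observed) limma found 6.8% of genes changed 2-fold and 54.8% of those changed 4-fold, beside 2.8 false calls on average. The simulated noise was independent between genes, and changes were placed only in genes above a set mean level. In the real libraries genes move together with cell content, so these rates may not hold for them. TPM are shares of a total, so much lymphoid or muscle RNA lowers all other values.

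All 10 members are named. From each wider list up to 4 genes with the smallest p were to be named, and for each member its 3 nearest genes by profile among those with a mean of at least 5 TPM. The members, lists and tests were chosen with earlier results of these data known. Alternatives were each library left out, the replicate block, pseudocounts of 0.5 and 0.1, median-ratio and upper-quartile factors, centring or a covariate on adipocyte markers, limma without trend or robust moderation, other filters, and the 4 libraries rich in lymphoid RNA. The marker mean in place of Adipoq was chosen after seeing the data. Figures were drawn with matplotlib 3.10.9.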

Additional observations from a re-analysis of the deposited data

How the results depend on the processing

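Over the 18 alternatives run, 0 members and 0 genes of the whole table passed the limma test, and adjusted p of the members ran from 0.431 to 0.999. In 3 alternatives 1 member had an unadjusted p below 0.05, where none did in the fit with group alone on all 6 libraries: Abhd5 without Tumor replicate 1 (-0.80) and without WT replicate 3 and Tumor replicate 1 (-0.76), and Prkar2b with the marker covariate (-0.36). The number of genes at an unadjusted p below 0.05 ran from 50 (centred on adipocyte markers) to 1559 (marker covariate), against 771. Leaving out 1 library moved the driver median from -0.82 to 0.02 and the restrainer median from -0.92 to 0.09, both above 0 only without Tumor replicate 3. Median-ratio and upper-quartile factors moved the median of all genes from 0.23 to 0.03 and 0.06 and the driver median to -0.71 and -0.68.

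Leave-one-out ranges that crossed 0 were -0.81 to 0.062 for Pnpla2, -0.82 to 0.090 for Lipe, -0.83 to 0.23 for Plin1, -0.79 to 0.42 for Plin4 and -0.29 to 0.40 for Pde3b. Centring turned Abhd5 to 0.0030, Plin4 to 0.12 and Pde3b to 0.44, and the marker covariate turned Plin1 to 0.055, Plin4 to 0.27 and Pde3b to 0.33. Without WT replicate 3 and Tumor replicate 1, Pde3b stood at 0.065.

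The 3 ratios without overlap became 3 to 6 with 1 library left out (6 without WT replicate 3 or Tumor replicate 2, 5 without Tumor replicate 1) and 8 without both WT replicate 3 and Tumor replicate 1, where fewer libraries make non-overlap easier. Ratios whose sign turned had log2 ranges, with any single library or that pair left out, of -0.39 to 0.32 for Abhd5/Plin1, -0.15 to 0.19 for Lipe/Plin1, -0.13 to 0.11 for Lipe/Pnpla2, -0.15 to 0.25 for Abhd5/Pnpla2, -0.29 to 0.035 for Cidec/Plin1, -0.056 to 0.29 for Plin4/Plin1, -0.56 to 0.031 for Abhd5/Adipoq and -0.29 to 0.18 for Plin4/Adipoq. Without both libraries, Abhd5/Plin1 stood at -0.38, Lipe/Pnpla2 at 0.10, Abhd5/Pnpla2 at -0.15 and Plin4/Adipoq at 0.18. With the marker mean in place of Adipoq, chosen after seeing the data, Abhd5 stood at 0.0025 and Plin4 at 0.12. Where no cause is given, the cause was not tested.

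Deviations of same-numbered libraries from their group means had correlations of -0.758, 0.205 and -0.843, and no number correlated best with itself across the groups. Lymphoid content differed widely within each group and enters these deviations, so the check cannot decide whether the numbers pair the libraries. With the replicate block 0 genes passed, 183 had an unadjusted p below 0.05, and 5 ratios had same-number differences of one sign.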
